A study of Mus musculus with 4 samples.

Results

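The chemokine system of cultured mouse lung fibroblasts is described here through 57 genes, taken from 19938 genes measured on 4 arrays. They are the genes whose symbol begins with Ccl, Cxcl, Cx3cl, Xcl, Ccr, Cxcr, Cx3cr, Xcr or Ackr followed by a number, together with Ccrl2, and where a gene had several rows the row with the highest mean stood for it. Of the 57, 34 encode ligands and 23 encode receptors. The KrasD12 group was 2 samples, A and B, of a lung fibroblast line with the genotype given under that name in the labels. The WT group was 2 samples, A and B, of a wild-type lung fibroblast line. Both lines grew out of collagenase-digested lungs of mice 3 to 4 weeks old, were kept in medium with 20% serum and received no treatment, and the protocol calls the cultures myofibroblasts. Each genotype is represented by a single line, and an effect of genotype cannot be told apart from a difference between lines. The labels do not say if A and B were grown separately, so p-values measure only the spread between these samples, which may be technical. The labels do not say which promoter or Cre, if any, controlled the allele.

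Chemokines are small secreted proteins that guide migrating cells along a gradient, named CC, CXC, CX3C or XC after the spacing of their first cysteines. They act through receptors with a heptahelical fold that couple to inhibitory G proteins, while atypical receptors bind the same ligands and clear them without that signal. In the lung, fibroblasts are a source of chemokines for monocytes, neutrophils and eosinophils. Most of the receptors are known mainly from leukocytes.

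Promoter windows show what neighbouring ligand genes share in sequence. Of the 57 genes, 43 had an entry in the RefSeq promoter table of build GRCm38.p6, and the 250 bases before the transcription start were searched on both strands for 6 motifs. A gene counted as matched where any of its windows held the motif. Shares of the whole table are of single windows, so the 2 measures are not alike. The NF-kB type motif, GGGA and TTTCC with 1 base between, was found in the windows of Cxcl1, Cxcl2, Cxcl3 and Ccr3, 4 of these 43 genes, against 0.356% of all 32851 windows in the table. Cxcl15, which lies between Cxcl3 and Cxcl1 on chromosome 5, had an entry without this motif. Cxcl1, Cxcl2 and Cxcl3, neutrophil chemokine genes that lie close together on chromosome 5, are printed with the matched letters in capitals. They carried the same 10 letters, GGGAATTTCC, at 71 to 62, 97 to 88 and 73 to 64 bases before the start. The windows are chr5:90890995-90891244, chr5:90903649-90903898 and chr5:90785851-90786100, all on the plus strand.
Cxcl1: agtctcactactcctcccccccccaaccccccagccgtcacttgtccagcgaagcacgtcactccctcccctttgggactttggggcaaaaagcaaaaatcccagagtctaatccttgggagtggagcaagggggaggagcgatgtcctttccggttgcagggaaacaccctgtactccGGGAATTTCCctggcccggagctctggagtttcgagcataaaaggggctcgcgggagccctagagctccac
Cxcl2: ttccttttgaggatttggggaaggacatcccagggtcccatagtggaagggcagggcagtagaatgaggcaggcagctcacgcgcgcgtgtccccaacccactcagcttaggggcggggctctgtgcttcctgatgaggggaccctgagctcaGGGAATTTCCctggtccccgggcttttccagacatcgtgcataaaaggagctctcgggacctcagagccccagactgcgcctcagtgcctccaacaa
Cxcl3: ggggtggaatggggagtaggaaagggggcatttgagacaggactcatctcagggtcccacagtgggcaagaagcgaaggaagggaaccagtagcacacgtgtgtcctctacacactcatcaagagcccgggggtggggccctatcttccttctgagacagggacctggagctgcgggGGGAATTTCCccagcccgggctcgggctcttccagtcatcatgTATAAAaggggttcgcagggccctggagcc
Ccl8 and Cxcr4 are printed as a ligand gene that fell and a receptor gene that rose, from chr11:82114935-82115184 on the plus strand and chr1:128592300-128592549 on the minus strand. Their capitals, like the second set of capitals in Cxcl3, mark the TATA box motif TATAAA on either strand, and in Cxcr4 a match on each strand overlaps the other.
Ccl8: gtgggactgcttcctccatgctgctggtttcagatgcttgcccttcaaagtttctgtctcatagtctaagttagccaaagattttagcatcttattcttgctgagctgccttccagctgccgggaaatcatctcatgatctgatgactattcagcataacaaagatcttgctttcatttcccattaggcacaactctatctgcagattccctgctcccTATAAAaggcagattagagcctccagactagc
Cxcr4: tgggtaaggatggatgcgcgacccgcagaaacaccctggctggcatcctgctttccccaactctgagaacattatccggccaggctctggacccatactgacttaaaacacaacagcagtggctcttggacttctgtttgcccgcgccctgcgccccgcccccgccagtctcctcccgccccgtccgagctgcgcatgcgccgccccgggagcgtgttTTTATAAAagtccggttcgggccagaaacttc
TATAAA was found in 14 of the 43 genes, against 12.4% of all windows. Among members called in the comparison described next, it was present for 4 of 8 genes that rose and 2 of 5 that fell with an entry, and the NF-kB type motif for 0 of 8 and 1 of 5. The AP-1 type motif TGANTCA matched Ccl9 among those that fell and the STAT type TTCNNNGAA matched Ccr1l1 among those that rose, against 6.75% and 7.02% of all windows. TTC and GAA with 4 bases between, a STAT6 type spacing, and a pair of GAAA with 2 bases between, an IRF type, were in 5.85% and 2.98% of all windows and were found for none of the called members. The counts leave out Ccl2, Ccl7, Ccl11, Ccl26, Cxcl5, Cxcl17, Ccr7 and Cxcr5, which had no entry. A match is a stretch of letters and was not tested as a site.

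Values are deposited log2 expression values, and every difference is KrasD12 minus WT on that scale. Genes were tested with limma over all 19938 genes with Benjamini-Hochberg adjustment at a threshold of 0.05. The array medians were 6.24 and 6.26 for KrasD12, against 5.90 and 5.91 for WT, and over all genes the median difference was 0.26. Quantile normalization of the 4 columns brought it to -0.0038. A gene is therefore said to have risen or fallen only where both scalings, deposited and quantile-normalized, called it with 1 sign. As a gauge of background, 1205 rows for olfactory and vomeronasal receptors were used, and the 95th percentile of their means, 5.152, is called the receptor-row level. Their own median difference was 0.33 as deposited and 0.013 once quantile-normalized, so small positive deposited differences of dim genes are to be read against that shift.

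On the deposited values alone 33 of the 57 genes were higher and 9 lower in KrasD12, against 50.1% and 11.9% of all genes. After quantile normalization 12 were higher and 14 lower, against 22.5% and 24.4% of all genes. By both, 12 rose and 9 fell in KrasD12, while 36 were not called on both scalings. The shares, 21.1% and 15.8%, stood against 22.4% and 11.5% of all genes, so the number of changed genes was near the background. By size, 1 gene rose at least 2-fold on both scalings, Ccl11, and 3 fell as far, Cxcl5, Ccl8 and Ccl2, against 1.23% and 1.28% of all genes. The ligands divided, with 6 of 34 rising and 9 of 34 falling. Of the 23 receptors 6 rose and 0 fell in limma, and 0 were lower on both scalings at an unadjusted p under 0.05 as well. The median difference was 0.325 over the 57 genes and 0.26 over all genes, or -0.04 and -0.0038 after quantile normalization. On the deposited values the 2 groups did not overlap for 49 of the 57 genes and for 16553 of all 19938. Groups without overlap were thus the usual case and do not mark a gene out. In bulk RNA, fewer cells with a transcript and less of it per cell cannot be told apart.

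**Figure D1:**
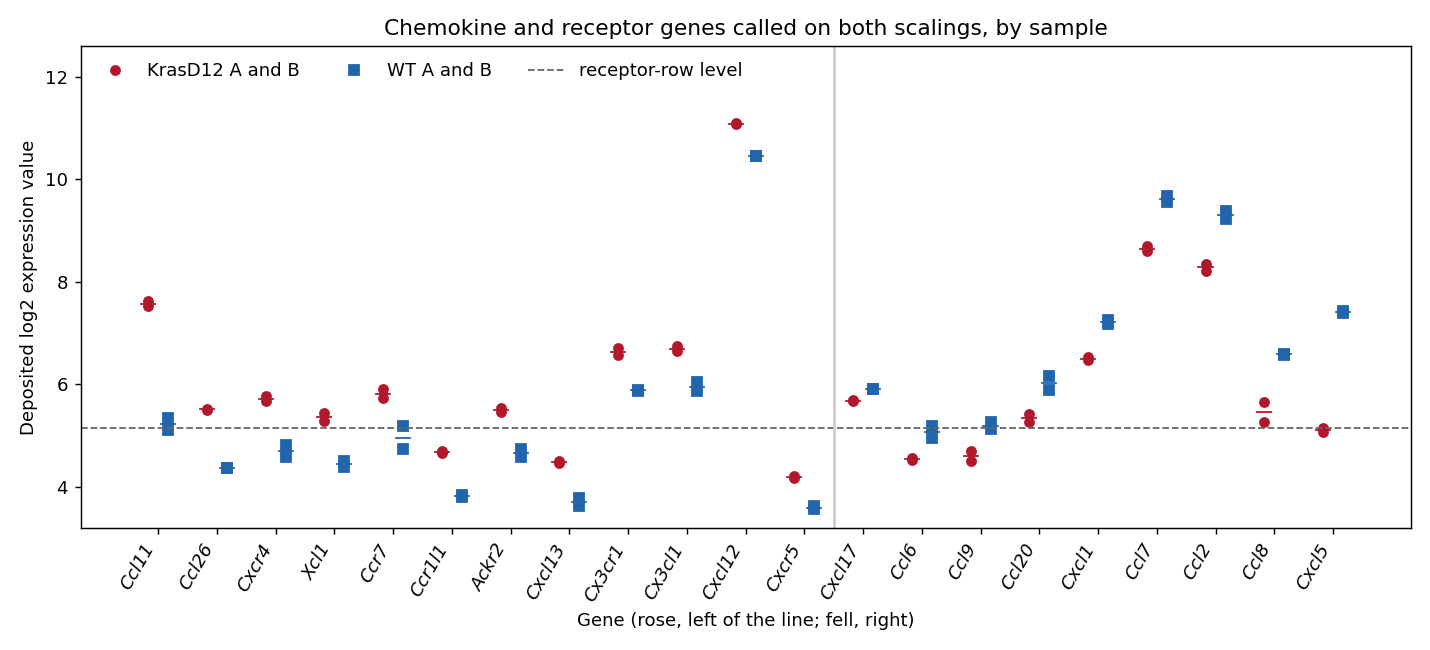
Deposited log2 values (y axis) of the 21 genes called on both scalings (x axis), with a red circle for each KrasD12 sample, a blue square for each WT sample and a short line at each group mean. The dashed line is the receptor-row level of 5.152. Ccl11 and Cxcl5 stand out by their distance between groups, and Ccr1l1, Cxcl13, Cxcr5 and Ccl6 have both group means below the dashed line.

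Among the neutrophil-attracting CXC ligands, which carry a Glu-Leu-Arg motif and act on Cxcr2, Cxcl5 and Cxcl1 fell in KrasD12. Cxcl5 had values of 5.08 and 5.15 in KrasD12, against 7.44 and 7.40 in WT. Both KrasD12 samples were at the receptor-row level, and both WT samples were far above it. The difference was -2.305 ± 0.07 (± is limma's moderated SE throughout, with n = 2 in each group, and limma adjusted p = 0.000127), and -2.62 after quantile normalization. With the KrasD12 mean below that level, no fold is given. Cxcl1 had 6.47 and 6.54 in KrasD12, against 7.17 and 7.25 in WT. These groups did not overlap either, and all 4 values lay above the receptor-row level. Cxcl1 differed by -0.705 ± 0.07 (limma adjusted p = 0.00133) and by -0.99 after quantile normalization. Cxcl2, Cxcl3 and Cxcl15, of the same group, lay below the receptor-row level in both lines and passed on at most 1 scaling. The promoter windows printed for Cxcl2 and Cxcl3 hold the same NF-kB type letters as Cxcl1.

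Of the 10 inflammatory CC ligands that act mainly on monocytes, macrophages and T cells, 5 fell and 0 rose, beside 11.5% and 22.4% of all genes, with 0 higher on both scalings at an unadjusted p under 0.05. Ccl2, the main monocyte attractant acting on Ccr2, had 8.22 and 8.35 in KrasD12, against 9.22 and 9.38 in WT. Ccl7, which also acts on Ccr2, had 8.69 and 8.61 in KrasD12, against 9.67 and 9.56 in WT. For both genes all 4 values were well above the receptor-row level and each KrasD12 value was below each WT value. Ccl2 differed by -1.015 ± 0.09 (limma adjusted p = 0.00098) and Ccl7 by -0.965 ± 0.08 (limma adjusted p = 0.000805), and after quantile normalization by -1.13 and -1.05. Ccl8, a ligand of Ccr8 in the mouse, had 5.27 and 5.66 in KrasD12, against 6.58 and 6.59 in WT. Its KrasD12 samples lay farther apart than its WT samples, with SDs of 0.276 and 0.0071, and did not reach them. Ccl8 differed by -1.12 ± 0.14 (limma adjusted p = 0.00197) and by -1.46 after quantile normalization.

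Ccl9 and Ccl6, a pair of rodent ligands of Ccr1, lay near the receptor-row level. Ccl9 had 4.71 and 4.50 in KrasD12, against 5.26 and 5.13 in WT, and fell by 0.59 ± 0.10 (limma adjusted p = 0.00503). Ccl6 had 4.52 and 4.56 in KrasD12, against 5.19 and 4.96 in WT, with both group means below the level, and fell by 0.535 ± 0.10 (limma adjusted p = 0.00618). After quantile normalization Ccl9 and Ccl6 differed by -0.99 and -0.94. The groups did not overlap for either gene. Ccl5, a ligand of T cells and monocytes, had 6.74 and 6.73 in KrasD12, against 6.87 and 6.62 in WT, so that the groups overlapped. It differed by -0.01, with a 95% interval of -0.26 to 0.24, and by -0.31 after quantile normalization, where it was called lower (limma adjusted p = 0.0401). Ccl1, a ligand of Ccr8, had 5.08 and 5.35 in KrasD12, against 4.98 and 5.16 in WT, and was not called, with 0.145 as deposited and -0.25 when quantile-normalized. Ccl3, Ccl4 and Ccl12 stayed below the receptor-row level in both groups and were not called by both.

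The eotaxins, ligands of the eosinophil receptor Ccr3, went the other way, and Ccl11 had the largest rise of the 57 genes on both scalings. Ccl11, eotaxin-1, had 7.52 and 7.63 in KrasD12, against 5.11 and 5.35 in WT. The WT samples lay around the receptor-row level and both KrasD12 samples far above it. Ccl11 differed by 2.345 ± 0.10 (limma adjusted p = 0.000271) and by 2.05 after quantile normalization. With the WT mean, 5.23, so near the receptor-row level, no fold is given. Ccl26, whose eotaxin role is known from human, had 5.51 and 5.53 in KrasD12, against 4.37 in each WT sample. It rose by 1.15 ± 0.06 (limma adjusted p = 0.00044), or 0.755 after quantile normalization, from a WT mean below the receptor-row level. Ccl24, eotaxin-2, lay below the level in both lines and was not called after quantile normalization (-0.04). Ccr3 itself was below the level in both lines.

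**Figure D2:**
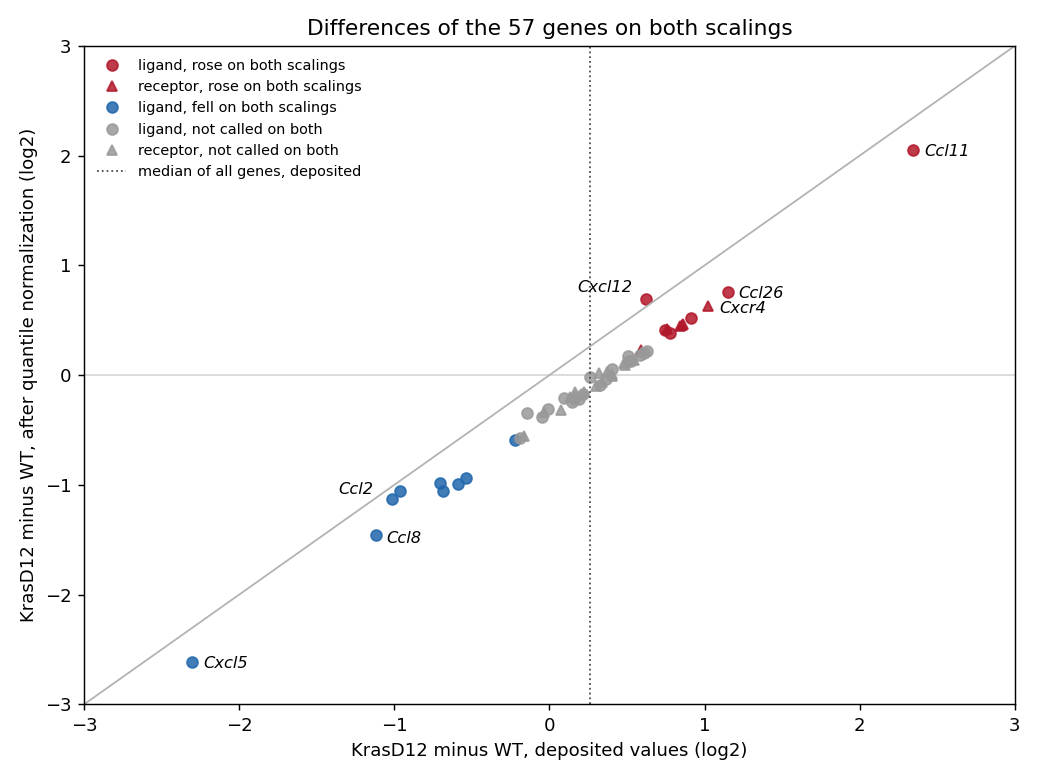
Difference between KrasD12 and WT on the deposited values (x axis, log2) and after quantile normalization (y axis, log2) for the 57 genes, circles for ligands and triangles for receptors, red for those that rose, blue for those that fell and grey for the rest. The diagonal marks equal differences and the dotted line the median of all genes on the deposited values, 0.26. Most points lie below the diagonal, and Cxcl12 lies above it.

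Among the remaining ligands Cxcl12, Cx3cl1 and Xcl1 rose, and Ccl20 and Cxcl17 fell. Cxcl12, the ligand of Cxcr4 and Ackr3 and a typical product of stromal cells, had 11.07 and 11.09 in KrasD12, against 10.46 in each WT sample. These values lay far above the receptor-row level in both lines, and the KrasD12 samples were higher by more than the spread between A and B. Cxcl12 rose by 0.62 ± 0.06 (limma adjusted p = 0.00138) and by 0.69 after quantile normalization, while genes with means of 10 to 11 had a median deposited difference of -0.045. Cx3cl1, a membrane-bound ligand that can be shed, had 6.66 and 6.74 in KrasD12, against 5.87 and 6.04 in WT, and rose by 0.745 ± 0.09 (limma adjusted p = 0.00175), or 0.41 after quantile normalization. Xcl1, a ligand known from T and NK cells, had 5.44 and 5.28 in KrasD12, against 4.39 and 4.50 in WT, and rose by 0.915 ± 0.09 (limma adjusted p = 0.00114), or 0.52 after quantile normalization. The groups overlapped for neither gene, and the WT mean of Xcl1 was below the receptor-row level. Ccl20, which attracts cells with Ccr6, had 5.27 and 5.43 in KrasD12, against 6.17 and 5.90 in WT, and fell by 0.685 ± 0.12 (limma adjusted p = 0.00508), or by 1.06 after quantile normalization. Cxcl17, a mucosal chemokine, had 5.67 and 5.70 in KrasD12, against 5.91 in each WT sample, a difference of -0.225 ± 0.07 (limma adjusted p = 0.0291) that was -0.59 after quantile normalization. The Cxcl17 call on the deposited values was lost with the replicate letter as a block (limma adjusted p = 0.0539) and with an intensity trend (limma adjusted p = 0.0705).

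The CXC ligands that interferon induces and that act on Cxcr3 were not called on both scalings. Cxcl10 had 7.42 and 7.71 in KrasD12, against 7.64 and 7.78 in WT, overlapping groups with a difference of -0.145 and a 95% interval of -0.44 to 0.15. Cxcl9 had 5.21 and 5.33 in KrasD12, against 4.62 and 4.87 in WT, a difference of 0.525 that was 0.125 after quantile normalization, and Cxcl11 was below the receptor-row level in both lines. Cxcl16, a membrane-bound ligand of Cxcr6, had 7.02 and 7.01 in KrasD12, against 6.68 and 6.83 in WT, and its difference of 0.26 turned to -0.02 after quantile normalization. Cxcl14 had 5.40 and 5.45 in KrasD12, against 4.97 and 4.85 in WT, or 0.515 and 0.13 on the deposited and quantile values. Ccl17, a ligand of Ccr4, had 5.28 and 5.33 in KrasD12, against 5.75 and 5.24 in WT, where WT B lay below both KrasD12 samples. It was called lower after quantile normalization (-0.57) but not on the deposited values (-0.19).

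Rows of a single gene disagreed for Ccl25 and Ccl19. Ccl25, a ligand of Ccr9, had 6.53 and 6.63 in KrasD12, against 6.02 and 6.13 in WT, on the brighter of its 2 rows, a difference of 0.505. On its dimmer row it had 5.17 and 4.98 in KrasD12, against 5.31 and 5.42 in WT, a difference of -0.29. Ccl19, a ligand of Ccr7, had 5 rows with deposited differences from 0.005 to 0.405. The brightest Ccl19 row read 6.04 and 6.33 in KrasD12, against 5.72 and 5.84 in WT. The gene table also lists pseudogenes of Ccl19 and another locus with Ccl19 among its older names, so the copies behind a Ccl19 row are uncertain.

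Of the 23 receptor genes, 10 had a group mean above the receptor-row level, 5 of them only in KrasD12. Of the 10, 4 rose, Cx3cr1, Cxcr4, Ccr7 and Ackr2, beside 3735 of the 14668 genes above the level in the whole table. Cxcr4, Ccr7 and Ackr2 had WT means below the level and passed it only through the group where they were higher. The count of 4 is therefore no support for a rise of receptors. Cx3cr1, the receptor of Cx3cl1, had 6.57 and 6.71 in KrasD12, against 5.90 and 5.87 in WT, and rose by 0.755 ± 0.08 (limma adjusted p = 0.00135), or 0.42 after quantile normalization. Cxcr4, the signalling receptor of Cxcl12, had 5.67 and 5.77 in KrasD12, against 4.81 and 4.58 in WT. The groups did not overlap for Cx3cr1 or Cxcr4, and both WT samples of Cxcr4 lay below the level that both KrasD12 samples passed. Cxcr4 rose by 1.025 ± 0.10 (limma adjusted p = 0.0012), and by 0.63 after quantile normalization. Ackr2, which clears inflammatory CC ligands, had 5.55 and 5.47 in KrasD12, against 4.59 and 4.75 in WT, and rose by 0.84 ± 0.08 (limma adjusted p = 0.00128), or 0.45 after quantile normalization. Ccr7, the receptor of Ccl19, had 5.73 and 5.91 in KrasD12, against 5.18 and 4.74 in WT, and rose by 0.86 ± 0.16 (limma adjusted p = 0.00678), or 0.47 after quantile normalization. Its WT samples differed by more than its KrasD12 samples, with SDs of 0.127 in KrasD12 and 0.311 in WT, and its call was lost with the replicate letter as a block.

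The other receptors above the level were not called on both scalings. Ackr3, which binds Cxcl12 without G-protein signalling, had 6.41 and 6.39 in KrasD12, against 6.25 and 6.28 in WT. Its difference was 0.135 on the deposited values, with a 95% interval of -0.03 to 0.30, and -0.20 after quantile normalization, so that it had no direction that held on both scalings. Ccr10, a receptor of skin-homing T cells, had 6.14 and 6.36 in KrasD12, against 5.99 and 5.77 in WT, a difference of 0.37 that was 0.025 after quantile normalization. Cxcr1, a receptor of neutrophil chemokines, had 5.80 and 5.90 in KrasD12, against 5.34 and 5.17 in WT, with 0.595 and 0.21 on the deposited and quantile values. Cxcr3 had 5.64 and 5.50 in KrasD12, against 5.20 and 4.97 in WT, and Xcr1, the receptor of Xcl1, had 5.01 and 5.42 in KrasD12, against 4.62 and 4.72 in WT. After quantile normalization Cxcr3 and Xcr1 differed by 0.09 and 0.14. Ccrl2, which binds the attractant chemerin, had 5.14 in each KrasD12 sample, against 5.35 and 5.26 in WT. Ccrl2 was called lower after quantile normalization (-0.56) but not on the deposited values (-0.165).

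In all, 25 of the 57 genes had both group means at or below the receptor-row level, 12 ligands and 13 receptors. Of all 19938 genes 5270 did. The receptors among them were Ccr1, Ccr1l1, Ccr2, Ccr3, Ccr4, Ccr6, Ccr8, Ccr9, Cxcr2, Cxcr5, Cxcr6, Ackr1 and Ackr4. The ligands were Ccl3, Ccl4, Ccl6, Ccl12, Ccl22, Ccl24, Ccl28, Cxcl2, Cxcl3, Cxcl11, Cxcl13 and Cxcl15. Their differences ran from -0.535 to 0.855 on the deposited values and from -0.94 to 0.46 after quantile normalization. Cxcl13 and its receptor Cxcr5, which organise B-cell follicles, and Ccr1l1 were called higher and Ccl6 lower on both scalings, but neither line's mean of these genes cleared the background gauge. The receptors Ccr2, of Ccl2 and Ccl7, and Cxcr2, of Cxcl5 and Cxcl1, were thus not above background in either line. Of the 32 genes above the level, 10 passed it only in KrasD12 and 3 only in WT, beside 1535 and 205 of the 14668 genes above it in the whole table. These counts rest on deposited values, on which the receptor rows themselves differed by a median of 0.33.

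Gene order on the chromosome was set beside the differences. The chromosome 11 group in the order Ccl2, Ccl7, Ccl11, Ccl12, Ccl8 and Ccl1 held the largest rise of the 57 genes. It lay between Ccl7, which fell, and Ccl12, which was not called and was below the receptor-row level. Ccl11 differed by 2.345 while its neighbours Ccl7 and Ccl12 differed by -0.965 and -0.05, and 1 of the 6 genes rose and 3 fell. In the other chromosome 11 group, Ccl9 and Ccl6 lie side by side and both fell, while Ccl5, Ccl3 and Ccl4 were not called on both scalings. On chromosome 5, in the order Cxcl5, Cxcl3, Cxcl15, Cxcl1 and Cxcl2, the genes that fell were separated by Cxcl3 and Cxcl15, which were not called on both scalings. Of the 7 receptor genes from Ccr9 to Ccr2 on chromosome 9, 1, Ccr1l1, was called on both scalings. Gene order was taken from the GRCm38.p6 gene table.

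**Figure D3:**
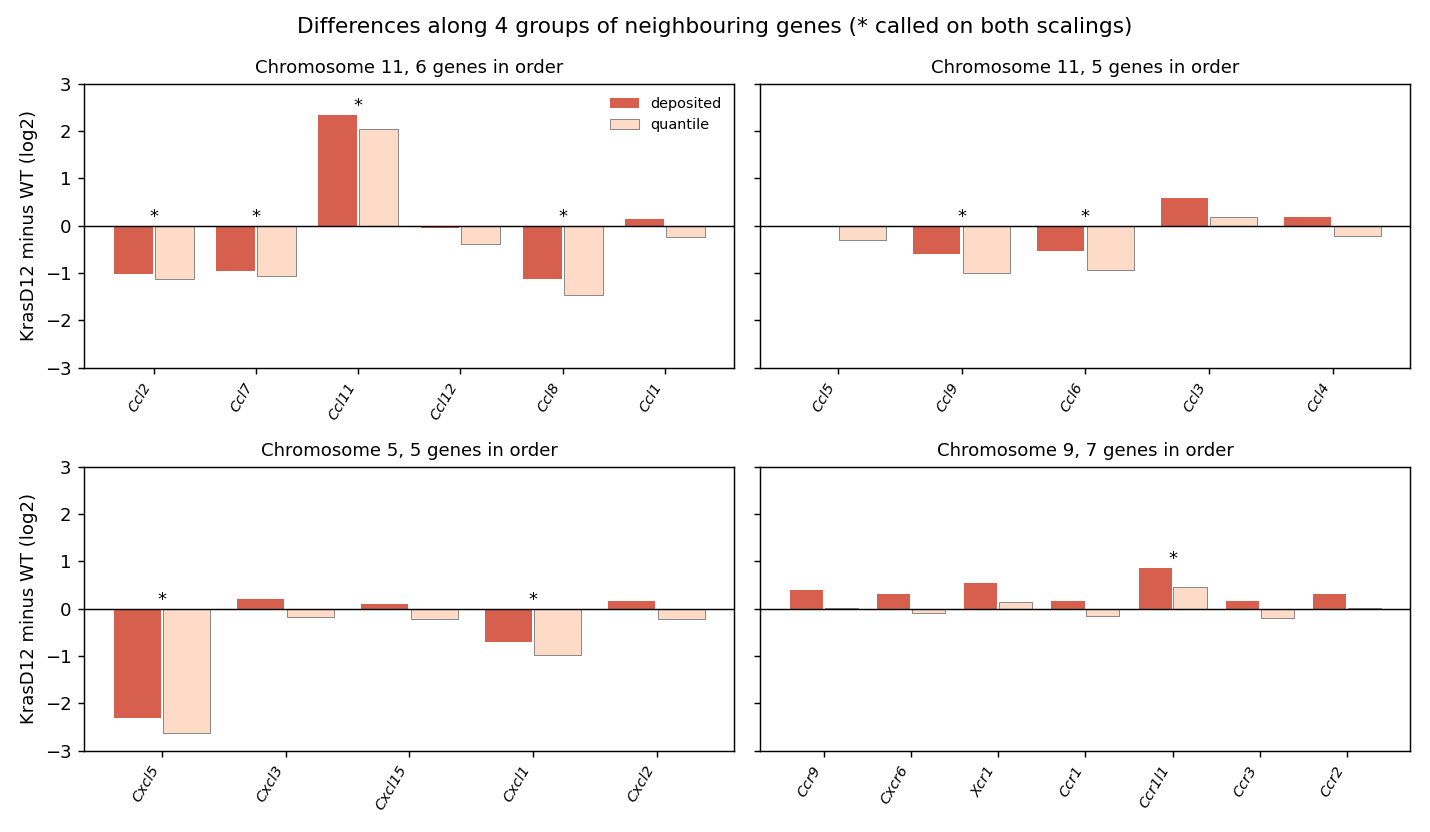
Difference between KrasD12 and WT (y axis, log2) for genes in chromosomal order (x axis) in 4 groups of neighbours, with dark bars for the deposited values, pale bars for the quantile-normalized values and an asterisk for genes called on both. Ccl11 at 2.345 stands between Ccl7 at -0.965 and Ccl12 at -0.05, and Cxcl5 at -2.305 lies next to Cxcl3 at 0.215.

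Genes that act around the chemokines were divided in direction. Among 21 measured receptors and adaptors for signals that induce chemokines, 5 rose and 6 fell. Tlr4, the endotoxin receptor, had 8.57 and 8.48 in KrasD12, against 7.64 and 7.62 in WT, and Il6ra, a chain of the interleukin-6 receptor, had 8.64 and 8.65 in KrasD12, against 7.62 and 7.73 in WT. They rose by 0.895 ± 0.07 and 0.97 ± 0.07, and Il13ra2, a decoy receptor for interleukin-13, rose by 0.71 with both means below the receptor-row level. Lifr, a receptor of the interleukin-6 family, fell by 0.82 ± 0.08 and the shared chain Il6st by 0.69, and the toll-like receptor adaptor Myd88 by 0.21. Of 18 measured NF-kB factors, inhibitors and kinases, 4 rose and 2 fell. Cebpd, a leucine zipper factor that binds inflammatory promoters, rose by 0.825 ± 0.09, Nfkbiz, a nuclear cofactor, by 0.615 ± 0.07 and the adaptor gene Traf6 by 0.525. Nfkbia, the inhibitor IkB-alpha and itself an NF-kB target, had 8.46 and 8.52 in KrasD12, against 8.75 and 8.96 in WT, and fell by 0.365 ± 0.09 (limma adjusted p = 0.0193). Rela, a subunit of NF-kB, differed by 0.305 and 0.19 on the deposited and quantile values and was not called on both.

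Among 15 measured STAT, JAK, IRF and SOCS genes 2 rose and 3 fell. Socs1 and the kinase gene Jak2 rose by 0.55 ± 0.08 and 0.445 ± 0.09, while Irf1 and Stat2, factors of the interferon response, fell by 0.465 ± 0.08 and 0.395 ± 0.11. Stat6, the factor through which interleukin-4 and interleukin-13 induce Ccl11, had 9.30 and 9.27 in KrasD12, against 9.24 and 9.28 in WT, overlapping groups with a difference of 0.025. Of 7 genes whose proteins bind AU-rich chemokine mRNAs, 3 rose and 0 fell in limma. These were Zfp36l1 (0.475 ± 0.09), Zfp36l2 (0.375 ± 0.07) and Khsrp (0.325 ± 0.07). With columns centred on their medians the 3 stood at 0.13, 0.03 and -0.02 and lost their calls, as did Traf6 (0.18), Socs1 (0.205), Jak2 (0.10) and Hs2st1 (0.195). Zfp36 itself differed by 0.405 and 0.17 on the deposited and quantile values. Of 18 measured proteases and binding proteins of chemokines, 5 rose and 5 fell. The gelatinase Mmp2, which can cleave Ccl7 and Cxcl12, had 11.19 and 11.36 in KrasD12, against 10.20 and 10.22 in WT, and rose by 1.065 ± 0.08 (limma adjusted p = 0.000781). Dpp4, a protease that trims chemokines including Ccl11 and Cxcl12, fell by 0.425 ± 0.10, and Mmp8, a neutrophil collagenase, fell by 0.965 ± 0.09 from a WT mean above the receptor-row level. Hs2st1, a heparan sulfate sulfotransferase, rose by 0.54 ± 0.07, and Mmp12 rose by 0.745 ± 0.09 near the level.

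Of 25 measured genes of signalling below the receptors, 5 rose and 4 fell. Gng2, a G-protein gamma subunit, rose by 0.86 ± 0.08, the GTPase gene Rac2 by 0.845 ± 0.10 and Rgs16 and Rgs2, which speed GTP hydrolysis by G-protein alpha subunits, by 0.775 ± 0.07 and 0.74 ± 0.06. After quantile normalization these 4 differences were 0.64, 0.49, 0.48 and 0.35. The inhibitory alpha subunits Gnai3 and Gnai1 fell by 0.465 ± 0.09 and 0.335 ± 0.08, and Gnai2 differed by 0.07. Of 4 kin outside the symbol rule, Mif, an attractant that can bind Cxcr4, had 10.59 and 10.68 in KrasD12, against 10.83 and 10.88 in WT, and was called lower on the deposited values but not after quantile normalization (-0.22 and -0.17). Cklf had 6.85 and 6.76 in KrasD12, against 6.32 and 6.49 in WT, with 0.40 on the deposited and 0.08 on the quantile values. The platelet chemokine genes Pf4 and Ppbp were below the receptor-row level, where Pf4 fell, by 0.37 as deposited and 0.72 after quantile normalization. Over all genes 22.4% rose and 11.5% fell, beside which these lists are counts only.

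**Figure D4:**
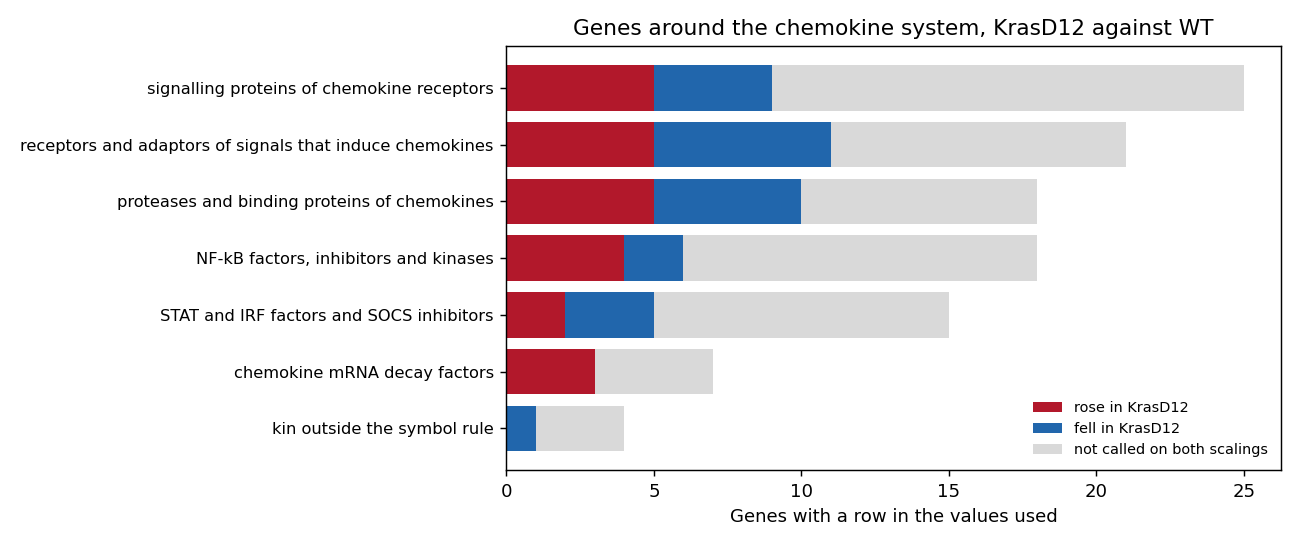
Number of measured genes (x axis) in 7 lists of genes around the chemokine system (y axis), split into those that rose in KrasD12 (red), fell in KrasD12 (blue) and the rest (grey). Signal receptors show 5 rises and 6 falls of 21, and mRNA decay factors 3 rises of 7.

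Markers of other cell types moved with some of these genes. Of 6 endothelial and 5 mesothelial markers 0 were called on both scalings. Of 8 epithelial markers 2 rose, Sftpc by 0.92 and Sftpb by 0.70. Of 7 measured lymphocyte markers 1 rose, Cd79a by 1.02 below the receptor-row level. These counts stand beside 22.4% of all genes that rose and 11.5% that fell. All 10 fibroblast markers were above the receptor-row level in both lines. Ptprc, the pan-leukocyte marker, had 4.29 and 4.19 in KrasD12, against 4.04 in each WT sample, all below the level. Of 9 macrophage and monocyte markers, 3 had a mean above the level in KrasD12 and 4 in WT, and Adgre1, Itgam, Mrc1 and Ptprc were below it in both. The summed linear values of the 9 were 339 and 323 in KrasD12 and 326 and 348 in WT. Lyz2, a lysozyme gene of myeloid cells, had 4.56 and 4.70 in KrasD12, against 6.01 and 6.20 in WT, and fell by 1.475 ± 0.10. Cd14 and Csf1r fell by 0.445 and 0.43. Adgre1 rose, by 0.625 as deposited and 0.26 when quantile-normalized, below the level. Cd68 (0.71), Itgam (0.685) and Marco (0.415) were called higher as deposited and not after quantile normalization. The list thus held markers of both directions beside the falls of Ccl2, Ccl7 and Ccl8, and its part in those falls was not tested. Of 7 granulocyte and mast cell markers 3 rose, Mpo by 1.045, S100a9 by 0.875 and S100a8 by 0.845 below the level, alongside Ccl11 and Cxcr4. The WT means of Mpo and S100a9, 4.78 and 4.325, were also below it. Ly6g, Cpa3, Fcer1a and Siglecf were not called on both scalings. The summed linear values of the 7 were 226 and 240.3 in KrasD12 and 154 and 161 in WT. The epithelial list also summed higher in KrasD12, at 387 and 420 against 288 and 284. So did the lymphocyte list, at 209 and 224 against 172 and 167, and the endothelial list, at 287 and 294 against 244 and 224. The fibroblast and contractile lists summed lower. All these sums rest on deposited values, on which the receptor rows themselves differed by a median of 0.33. After quantile normalization the median differences of the granulocyte and mast cell, epithelial, lymphocyte and endothelial lists were 0.0587, 0.17, -0.0175 and -0.0681. The part of the granulocyte and mast cell markers in the rises of Ccl11 and Cxcr4 was not tested. Of 5 contractile markers of the myofibroblast state 4 fell, with differences of -1.67 for Acta2 and -1.65 for Cnn1 among them, and the part of this shift was not tested.

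With 1 WT array left out, limma called 0 of 19938 genes on the deposited values, at smallest adjusted p of 0.0552 without WT A and 0.053 without WT B and with 9846 and 10022 genes at an unadjusted p under 0.05. No member call on both scalings remained in those fits. With KrasD12 A or KrasD12 B left out in turn, only part of the member calls remained. An arm of 1 array gives no spread of its own, so these fits take the spread from the other group's 2 arrays, and the lone sample is assumed to vary like them. Over the 4 fits the deposited difference of Ccl11 ran from 2.225 to 2.465, Cxcl5 from -2.34 to -2.27, Ccl2 from -1.095 to -0.935, Ccl8 from -1.315 to -0.925 and Cxcl12 from 0.61 to 0.63. Other called genes moved further, with Ccr7 at 0.64 to 1.08 (0.2563 to 0.6838 on the quantile values) and Ccl6 at -0.65 to -0.42.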

How the data were processed

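RNA of 4 samples, 2 KrasD12 and 2 WT, was measured on Affymetrix mouse gene arrays. The authors deposited log2 expression values, 1 per array row and sample (2.28 to 14.95). Per the submitters' processing notes the Transcriptome Analysis Console was used. For its version, background correction and normalization nothing is given in the sources used here. Of 28944 rows, 21789 carried 1 symbol in the platform annotation, 1621 several and 5534 none. Rows with 1 symbol gave 19938 genes, each by its row of highest mean, and 62 of them gave the 57 genes described. Another 7 rows that list a chemokine among several symbols were not used.

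The test was limma's (version 3.58.1, R 4.3.3), with lmFit and eBayes, group as the only term, two-sided, at an adjusted p under 0.05, run once per scaling. The fit has 2 residual degrees of freedom, and the number of arrays limits the precision. The script was tested on simulated data. Promoters were searched and figures drawn with Python 3.11.15, pandas 2.3.3 and matplotlib 3.10.9. Values are printed for members with a group mean above the receptor-row level, and from each list for up to 4 called genes that differed most. A list with fewer than 2 called genes is given by the 2 genes above that level that differed most, beside any called gene. Ccl6, a ligand below that level, and list genes outside the rule (Il6st, Myd88, Rela, Stat6, Zfp36, Dpp4, Gnai1, Gnai2, Gnai3) were also given values and were chosen after their values were seen. Members and lists were chosen with earlier results of these data known. Alternatives were other scalings, a filter on dim genes, other eBayes settings, the mean of a gene's rows, a replicate block, other thresholds and each array left out, with quantile values then still from all 4 columns. Protein sequences were not used.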

Additional observations from a re-analysis of the deposited data

How the results depend on the processing

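The number of members that rose on both scalings (12) was 12 with either median centring or cyclic loess in place of quantile normalization, and the number that fell (9) was 9 with both. Over all genes 3574 rose and 2381 fell with centring, and 4507 and 2302 with loess. On the deposited values alone 33 members were higher and 9 lower, against 50.1% and 11.9% of all genes. After quantile normalization 12 were higher and 14 lower (22.5% and 24.4% of all genes). Centred columns gave 12 and 17, against 3574 and 6657 of all 19938 genes. Cyclic loess gave 12 and 15, against 4533 and 4933 of all genes. These scalings remove the gap between columns. The filter on dim genes, which tests fewer genes, left 13 higher on the deposited values and 6 that rose on both. Of all the genes it kept, 6820 were higher and 3754 rose. At least 2-fold, the deposited values gave 3 higher and 3 lower, against 728 and 257 of all genes. With the size asked of both scalings 1 rose and 3 fell, against 246 and 255 of all genes. Leaving out each array in turn gave 0 to 11 higher, 0 to 5 lower, 0 to 6 that rose and 0 to 5 that fell. After quantile normalization alone limma called 3847 genes without WT A and 4311 without WT B. The letters A and B are not said to mark shared cultures, and the deviations of same-lettered samples correlated at 0.013 over genes. With the letter as a replicate block 24 members were higher, 8 lower, 10 rose and 8 fell, against 8350, 1910, 4447 and 1869 of all genes. Ccr7, Cxcr5 and Cxcl17 lost their calls with the block. Cxcr5 and Cxcl17 also lost theirs with an intensity trend in eBayes. With the 99th percentile of the receptor rows as the level, 16 members were above it, among them 9 of those called, beside 11157 of all genes. Ackr3 turned to -0.1975 with quantile normalization, -0.21 with centring and -0.2079 with loess. Cxcl16 turned to -0.0175, -0.085 and -0.0303, and Ccl1 to -0.2456, -0.20 and -0.2649. With each array left out in turn, Ccl5 ran from -0.135 to 0.115 and Ccl17 from -0.445 to 0.065, positive without WT A, and Cxcl10 from -0.29 to 0.00, the upper value without KrasD12 A. Khsrp turned to -0.02 with centring. The cause was not tested.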
